A study of Mus musculus and unidentified plasmid with 60 samples.

Results

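Binding of a dominant-negative RFX protein was examined at the loci of 5 glial lineage genes, Olig1, Olig2, Sox10, Pdgfra and Gfap, in cultured mouse cortical neurons. The members are the listed binding regions that overlap 4 fixed windows of the mouse build mm9, which together span 380.0 kb. They number 48 of 173231 regions in silenced neurons (0 h), 33 of 122135 regions after 1 h of depolarization, and 0 of 43 regions in a list titled WT. The windows run from 91190000 to 91300000 on chromosome 16 for Olig1 and Olig2 together, from 78950000 to 79030000 on chromosome 15 for Sox10, from 75510000 to 75630000 on chromosome 5 for Pdgfra, and from 102720000 to 102790000 on chromosome 11 for Gfap. The windows were set by position, with no measured value in the rule, but with earlier results of these data known.

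All cultures came from embryonic day 16 (E16) CD-1 mouse embryos. Neurons of the 0 h and 1 h groups received the RFX dominant negative (RFX-DN) by lentivirus at day in vitro (DIV) 2, and tetrodotoxin with DL-2-amino-5-phosphonopentanoic acid overnight from DIV 6. At DIV 7 they were harvested after 0 h or 1 h in 55 mM KCl, which depolarizes neurons, and chromatin was precipitated through the MYC tag. The WT group, also at DIV 7, has no treatment label, and whether it carried the construct is not clear from the labels. The sources used here name neither the promoter that drove the construct nor the cells it reached. Each group has 2 libraries and 1 combined list, so a count of regions has no replicate error. Each region carries a position, read here as the peak centre, in 1 or both of 2 replicate columns, and these columns are the only replicate-level readout.

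RFX proteins are winged-helix transcription factors that bind the X-box, an inverted repeat, and are best known as activators of genes for cilia. A dominant-negative form interferes with the native proteins, and its regions show where the tagged construct was recovered. Olig1 and Olig2 are neighbouring basic helix-loop-helix genes, of which Olig2 specifies oligodendrocyte precursors and Olig1 acts in their maturation and in myelination. Sox10 is a high-mobility-group transcription factor of the oligodendrocyte lineage that activates myelin genes. Pdgfra is the receptor for platelet-derived growth factor that marks and sustains oligodendrocyte precursors, and Gfap is an intermediate filament protein of astrocytes. In the cortex, most glia arise after the peak of neuron production. The lists hold no expression values, so whether these genes were active, or in which cells of the culture, was not measured.

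The sequence around the start sites of these genes is shown to let a reader see what an RFX protein would meet there. RefSeq promoters (build GRCm38.p6, 250 bases before to 50 after the start, on the gene's own strand) were matched for 3 of the 5 genes. They lie at chr16:91225300-91225599 (plus strand) for Olig2, chr5:75152001-75152300 (plus strand) for Pdgfra and chr11:102897151-102897450 (minus strand) for Gfap. Capitals mark each match to a single X-box arm, paired or not, searched as GTTNCC and, for the other strand, as GGNAAC:
Olig2: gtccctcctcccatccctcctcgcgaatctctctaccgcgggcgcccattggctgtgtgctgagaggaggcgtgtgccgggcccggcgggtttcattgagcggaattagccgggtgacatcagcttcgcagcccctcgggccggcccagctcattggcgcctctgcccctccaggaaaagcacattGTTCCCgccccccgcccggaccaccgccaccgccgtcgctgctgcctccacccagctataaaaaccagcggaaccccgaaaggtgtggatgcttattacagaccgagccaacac
Pdgfra: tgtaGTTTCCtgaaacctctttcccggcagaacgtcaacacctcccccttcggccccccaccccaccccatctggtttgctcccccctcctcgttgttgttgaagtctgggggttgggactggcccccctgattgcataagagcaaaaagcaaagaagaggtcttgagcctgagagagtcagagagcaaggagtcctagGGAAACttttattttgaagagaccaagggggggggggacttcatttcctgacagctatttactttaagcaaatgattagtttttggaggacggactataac
Gfap: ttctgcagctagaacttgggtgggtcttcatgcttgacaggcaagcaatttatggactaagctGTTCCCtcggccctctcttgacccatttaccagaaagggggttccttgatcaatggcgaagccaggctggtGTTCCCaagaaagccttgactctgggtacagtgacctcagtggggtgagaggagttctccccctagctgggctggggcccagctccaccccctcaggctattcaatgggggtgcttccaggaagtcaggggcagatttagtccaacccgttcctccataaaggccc
Olig2 held 1 such arm, while Pdgfra and Gfap held 2 each. The arm is common, being found in 45.3% of the 32851 promoters of the table. Both arms facing each other with 1 to 3 bases between them stood in 0.776% of all promoters and in none of these 3. A looser form with N at 1 more base of each arm (GTNNCC facing GGNNAC) stood in 3.49% of all promoters, and also in none of these 3. These letters describe the sequence only. No mm9 annotation was used, so the regions below could not be placed at promoters, exons or introns, and GRCm38.p6 positions cannot be set beside mm9 ones. A region in a window may also belong to a neighbouring gene. In RefSeq's order the nearest protein-coding genes are 4932438H23Rik and Ifnar2 for the Olig pair, Polr2f and Pick1 for Sox10, Gsx2 and Kit for Pdgfra, and Fam187a and Kif18b for Gfap.

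All 4 windows held more RFX-DN regions per length than the rest of their chromosomes, at both times. Together they held 1.73 times the number of regions at 0 h, and 1.71 times the number at 1 h, that the density outside them would give. Relative to its own chromosome the Olig window was the most crowded at both times, with 16 regions at 0 h (14.5 per 100 kb, against 6.40 on the rest of chromosome 16) and 10 at 1 h (9.09 against 4.42). Pdgfra followed, with 16 regions at 0 h (13.3 per 100 kb against 7.45) and 12 at 1 h (10 against 5.25), so that at 1 h it held more regions per length than the Olig window. Set against all chromosomes, Pdgfra at 1 h also came first, with 2.11 times their density against 1.92 for the Olig window. Sox10 had 9 regions at 0 h (11.2 per 100 kb against 7.27) and 5 at 1 h (6.25 against 5.05). Gfap had 7 at 0 h (10 against 8.44) and 6 at 1 h (8.57 against 5.90). Gfap thus stood nearest to its chromosome at 0 h and Sox10 at 1 h. The excess of Sox10 at 1 h rested on the window's edges, since with each edge moved outward by 20 kb its density was 0.990 times that of the rest of the chromosome.

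**Figure D1:**
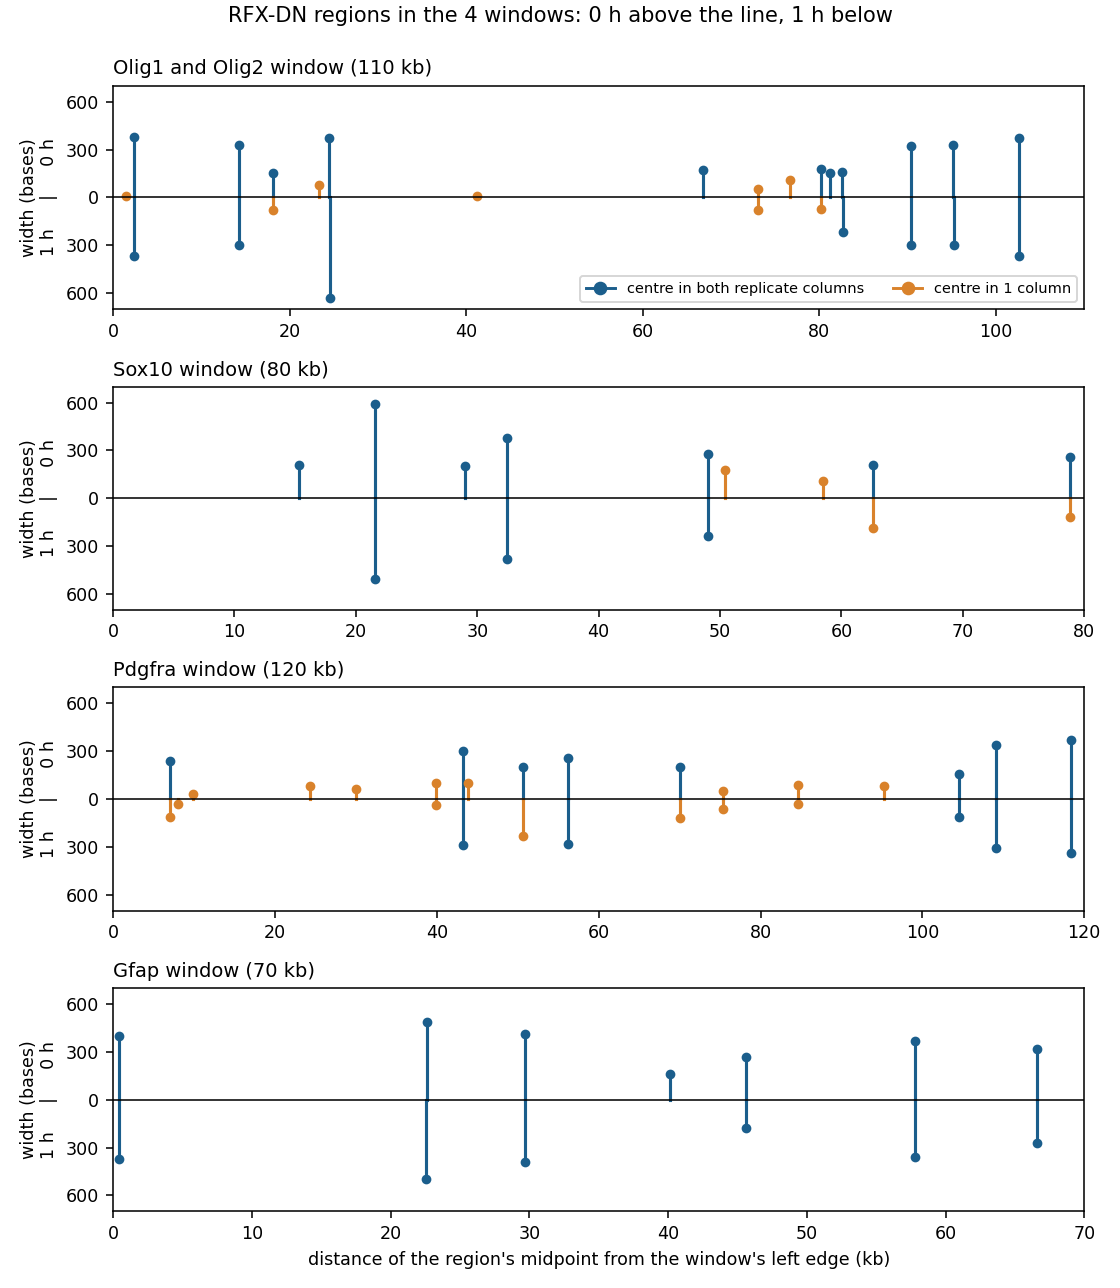
Each region of the 4 windows is drawn at its distance in kb from the window's left edge (x axis) as a stem whose length is its width in bases (y axis), upward for the 0 h list and downward for the 1 h list, in blue with a centre in both replicate columns and in orange with a centre in 1. Most tall blue stems are mirrored at 1 h, while 11 of the 16 stems without a counterpart below are orange and 5 are blue. In the whole 0 h list, 15919 of the 59957 regions without a counterpart had both centres. In the Gfap window every stem is blue.

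Set among stretches of equal length, the Olig and Pdgfra windows lay above the third quartile of their chromosomes at both times, Sox10 at 0 h only, and Gfap at neither. When chromosome 16 was divided into tiles of 110 kb, 818 of 863 (94.8%) held fewer than 16 regions at 0 h, and 773 (89.6%) held fewer than 10 at 1 h. For Pdgfra, 86.2% of 1243 tiles of 120 kb held fewer regions at 0 h and 87.3% at 1 h. For Sox10 these shares were 76.1% and 61.5% of 1254 tiles of 80 kb. For Gfap they were 59.1% and 71.5% of 1696 tiles of 70 kb. None of the windows was an extreme of its chromosome: at 0 h, 31 tiles of chromosome 16 and 523 tiles of chromosome 11 held more regions than the Olig and Gfap windows. Tiles take in stretches with few genes, and whether gene content accounts for the higher densities was not tested.

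**Figure D2:**
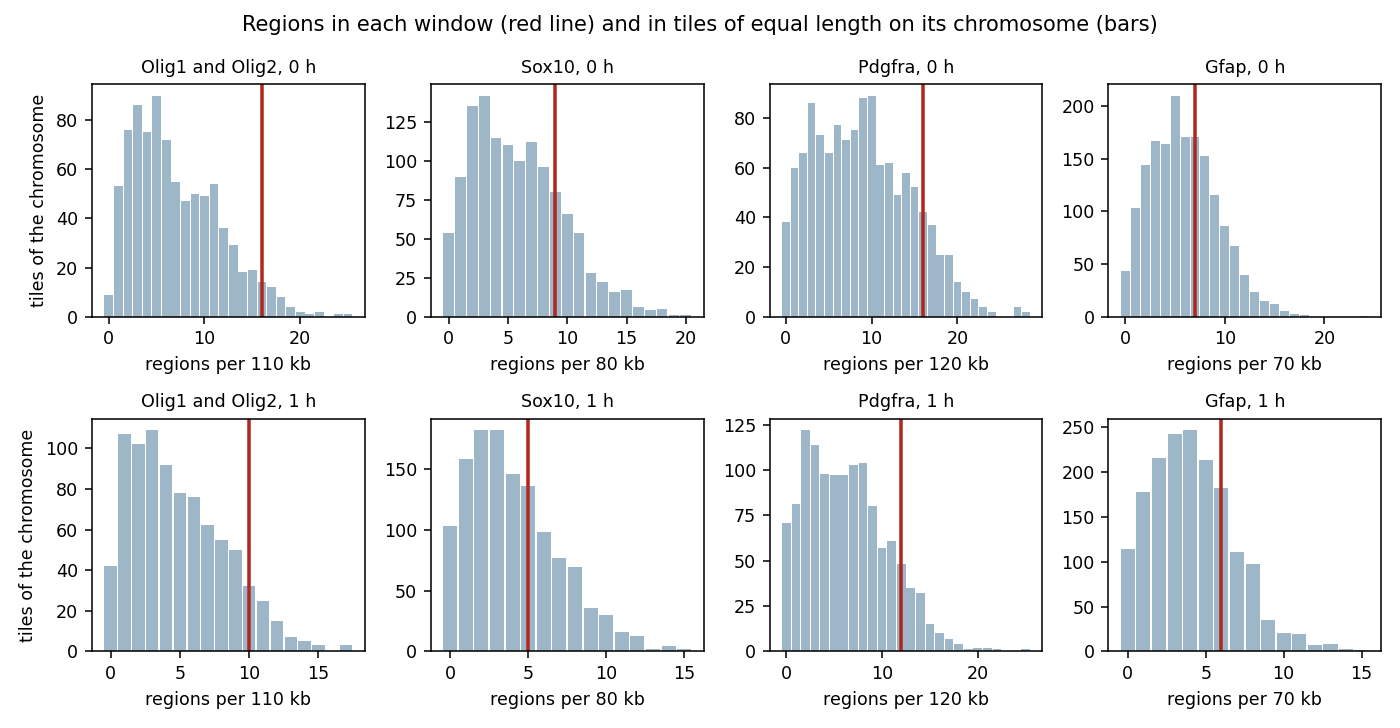
Bars give the number of end-to-end tiles of each chromosome (y axis) that hold a given number of RFX-DN regions (x axis, regions per tile of the window's own length), at 0 h in the upper row and at 1 h in the lower row, and the red line is the window. The line lies in the right tail for Olig1 and Olig2 (16 regions, tile median 6 at 0 h) and close to the bulk for Gfap (7 regions, tile median 6 at 0 h).

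The replicate columns separated the loci further, and differently at each time. In the Olig window at 0 h the columns held 15 and 12 centres, which are 2.36 and 2.47 times the densities of the same columns outside the window. Sox10 had 8 centres in either column (1.53 and 1.93 times), and Gfap 7 in either (1.32 and 1.62 times). Pdgfra had 16 centres in the first column and 8 in the second, 2.00 and 1.23 times the densities outside. At 0 h Pdgfra was therefore the locus where the columns differed most, and every one of its 0 h regions had a centre in the first column. Counting only regions with centres in both columns changed the order of the loci at 0 h, with 2.63 times the density of the rest of the chromosome for Olig, 1.96 for Sox10, 1.89 for Gfap and 1.43 for Pdgfra. At 1 h the columns held 8 and 9 centres in the Olig window and 6 and 6 at Gfap. Pdgfra held 10 and 7, and Sox10 5 and 3. Against the densities outside, these were 1.74 and 3.12 times for Olig and 1.56 and 2.25 for Gfap. They were 1.69 and 1.73 for Pdgfra, and 1.31 and 1.19 for Sox10. The second 1 h column was sparser outside, with 2493 centres against 3975 in the first on the rest of chromosome 16. Near-equal counts at Olig and Gfap therefore gave unequal ratios. With both centres required, the 1 h densities were 2.68 times those of the chromosome for Olig, 2.52 for Gfap, 1.37 for Pdgfra and 1.31 for Sox10. Gfap, at 1.45 times with all regions, thus stood next to Olig under this rule.

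Support by both columns ran from complete at Gfap to 50% at Pdgfra. All 7 Gfap regions at 0 h had centres in both columns, and all 6 at 1 h did too. At Sox10 the counts were 7 of 9 and 3 of 5, and in the Olig window 11 of 16 and 7 of 10. At Pdgfra they were 8 of 16 and 5 of 12. On the rest of the same chromosomes the 0 h shares were 62.8% for Gfap, 61.4% for Sox10, 59.4% for Olig and 62.5% for Pdgfra. The exact 95% intervals at 0 h ran from 24.7% to 75.3% at Pdgfra and from 59.0% to 100% at Gfap. The interval of every locus included the share of its chromosome at both times. Over the 4 windows, 33 of 48 regions (68.8%, exact Clopper-Pearson 95% interval 53.7% to 81.3%) had both centres at 0 h and 21 of 33 (63.6%, interval 45.1% to 79.6%) at 1 h. The whole lists gave 61.0% and 54.8%, which lie inside these intervals. The intervals cover counting error only, and neighbouring regions share their libraries. Where both centres were present they lay close together, at most 70 bases apart in any window at 0 h and at most 120 bases at 1 h.

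Widths followed the same order as support. The 0 h regions of the Gfap window were wide, from 160 to 490 bases with a median of 370, against a median of 210 on the rest of chromosome 11. All 7 had both centres, and in the whole list such regions had a median of 270 bases, against 110 with 1 centre. Pdgfra, where 8 of 16 regions had a single centre, had narrow regions, from 30 to 370 bases. Their median was 130, against 210 on the rest of chromosome 5. The Olig window mixed both kinds, from 10 to 380 bases with a median of 165 (chromosome 16 outside the window, 200), and Sox10 ran from 110 to 590 bases with a median of 210, equal to that of its chromosome. As a result the share of sequence covered did not follow the number of regions. At 0 h it was 3.46% at Gfap, 3.02% at Sox10, 2.88% in the Olig window and 2.22% at Pdgfra. The rest of the same chromosomes had 1.94%, 1.64%, 1.39% and 1.70%. At 1 h the Olig median was 300 bases, above the 210 of the rest of chromosome 16, the reverse of 0 h. The 1 h median was 365 at Gfap (220 outside), 240 at Sox10 (220) and 115 at Pdgfra (210). Over the 4 windows the median was 200 bases at 0 h and 270 at 1 h (whole lists, 200 and 210). The covered share at 1 h was again highest at Gfap (2.96%), but Olig (2.47%) then stood above Sox10. These values take in every listed region, not only retained ones.

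The next comparison asked how the regions of silenced neurons fared after 1 h in KCl. Of the 48 regions at 0 h, 32 (66.7%, exact 95% interval 51.6% to 79.6%) overlapped a 1 h region by at least 1 base. In the whole list this share was 65.4%, so retention at the glial loci was close to the background. By locus, 10 of 16 regions were retained in the Olig window (62.5%, against 64.0% of the rest of chromosome 16), 5 of 9 at Sox10 (55.6%, against 64.9% of chromosome 15), 11 of 16 at Pdgfra (68.8%, against 65.6% of chromosome 5) and 6 of 7 at Gfap (85.7%, against 65.2% of chromosome 11). All 4 exact intervals, from 21.2% to 86.3% at Sox10 to 42.1% to 99.6% at Gfap, include the value of the chromosome. In the other direction, 32 of 33 members listed at 1 h (97.0%) were already listed at 0 h, against 93.3% of the whole list.

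Retention went with support and width. Of the 33 regions with both centres at 0 h, 28 (84.8%) were met at 1 h, against 84.9% in the whole list. Of the 15 regions with a centre in 1 column, 4 (26.7%) were met, against 34.8%. All 4 of these lay at Pdgfra (3) and in the Olig window (1). Among regions with both centres that were at least 270 bases wide, the median of such regions in the whole list, all 18 were met (98.3% in the whole list). Of the 15 narrower ones, 10 were met (66.7%, against 70.4%). Regions that were met had a median width of 290 bases and the others one of 105 bases, against 260 and 100 bases in the whole list.

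Most regions with both centres that were retained had both again at 1 h, at a share near the background. Of the 28 retained regions with both centres at 0 h, 21 again had both at 1 h. At 1 h, with columns not matched to those at 0 h, 3 had only the first-column centre and 4 only the second. In the whole list 71.8% of such retained regions had both centres again. All 6 retained Gfap regions again had both centres, while 2 of 9 in the Olig window, 2 of 5 at Sox10 and 3 of 8 at Pdgfra had a single centre at 1 h. None of the 4 retained regions with a single centre at 0 h had both at 1 h, against 8.88% of 23550 in the whole list, a share too low to be read from 4 regions.

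The number of centres per replicate column was lower at 1 h in all 4 windows. In the Olig window it was 15 and 12 at 0 h and 8 and 9 at 1 h, or 13.5 ± 2.12 against 8.50 ± 0.707 (mean ± SD, n = 2 columns). At Sox10 the columns held 8 and 8 centres at 0 h and 5 and 3 at 1 h, with means of 8.0 ± 0.0 and 4.0 ± 1.41 (SD). At Gfap they held 7 and 7 at 0 h and 6 and 6 at 1 h. In these 3 windows the columns of the 2 times did not overlap. At Pdgfra they did, with 16 and 8 centres at 0 h and 10 and 7 at 1 h, or 12.0 ± 5.66 against 8.50 ± 2.12. An exact permutation test (two-sided) gave p = 0.333 for Olig, Sox10 and Gfap, the smallest that 2 columns against 2 allow, and 0.667 for Pdgfra (0.444 and 0.667 after Benjamini-Hochberg adjustment over the 4 windows), so no window could reach significance. Over the 4 windows together the ratio of the means was 1.5, close to the 1.48 of the whole lists. The labels do not state whether replicate libraries stem from different cultures, and these p-values then measure a spread that may be technical. Sequencing depth is unknown, and its part in the lower counts at 1 h was not tested. In these bulk cultures, fewer cells with bound chromatin and less binding per cell cannot be told apart.

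**Figure D3:**
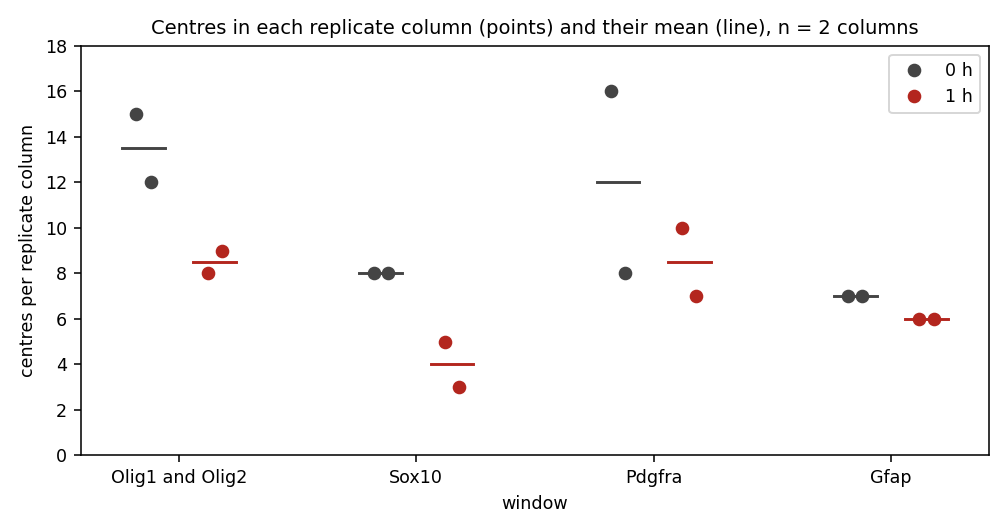
Points give the number of centres in each of the 2 replicate columns (y axis) in each window (x axis), in grey at 0 h and in red at 1 h, and lines are their means. All red points lie below all grey points for Olig1 and Olig2, Sox10 and Gfap, whereas at Pdgfra the grey points (16 and 8) reach across the red ones (10 and 7).

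In the Olig window the regions fell into a left and a right set with little between them. The left set had its widest regions from 91192180 to 91192560 (380 bases) and from 91214270 to 91214640 (370 bases), and the right set from 91292410 to 91292780 (370 bases), all with both centres and all met at 1 h. Between 91214640 and 91256760 the 0 h list held a single region, 10 bases wide with 1 centre, and at 1 h no region stood between 91214920 and 91262970, a stretch of 48.0 kb. The tightest group at 0 h was 3 regions within 2.56 kb, from 91270130 to 91272690, chosen after its values were seen, all with both centres. At 1 h its left member had become 70 bases wide with 1 centre, its middle member (91271150 to 91271300, 150 bases) was absent, and its right member was 220 bases wide with both centres, against 160 at 0 h. The other region with both centres that was absent at 1 h ran from 91256760 to 91256930 (170 bases).

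The region from 91214270 to 91214640 was also the retained region of the 4 windows whose width in bases differed most between the times. By ratio, some narrower regions changed more, such as that from 75594560 to 75594650 at Pdgfra, 90 bases wide at 0 h and 30 at 1 h. Its 1 h counterpart, from 91214290 to 91214920, was 630 bases wide, the widest 1 h region of the 4 windows, and had both centres. Its left edge and centres moved by 20 bases or less, so the added length lay on the right. Since the list gives 1 width for both libraries, this difference has no error and was not tested.

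At Sox10 the 3 widest regions were kept, and the 4 that were lost were at most 210 bases wide. The widest ran from 78971280 to 78971870 (590 bases) at 0 h and from 78971360 to 78971870 (510 bases) at 1 h. The region from 78982270 to 78982650 (380 bases) was listed with the same start and end at both times, and that from 78998830 to 78999110 (280 bases) was 240 bases wide at 1 h. Absent at 1 h were 2 regions with both centres, from 78965220 to 78965430 (210 bases) and from 78978870 to 78979070 (200 bases), and 2 with a single centre. The rightmost region, from 79028730 to 79028990, was 260 bases wide with 2 centres at 0 h and its counterpart 120 bases wide with 1 centre at 1 h.

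At Pdgfra every region with both centres was met at 1 h and every lost region had a first-column centre only, so without the first 0 h column the window held 8 regions, all met. Without the first 1 h column, 43.8% of the 16 regions at Pdgfra were met, and 33.3% of the 9 at Sox10. That setting takes out every 1 h region with a first-column centre only, which were 2815 of 7834 on the rest of chromosome 5. The shares outside the windows were not computed under it, so these values cannot be called particular to either locus. The widest 0 h regions ran from 75628170 to 75628540 (370 bases), from 75618900 to 75619240 (340 bases) and from 75553110 to 75553410 (300 bases), and all 3 had both centres at both times, with 1 h widths of 340, 310 and 290 bases. The 5 lost regions were 30 to 100 bases wide. Pdgfra also held the single region of the 4 windows that was listed at 1 h only, from 75518000 to 75518030, 30 bases wide with a first-column centre. It lay between a retained region and a lost one of the same width.

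At Gfap 6 of 7 regions were listed at both times with both centres. The widest ran from 102742350 to 102742840 (490 bases) at 0 h and from 102742300 to 102742800 (500 bases) at 1 h. Next to it stood regions from 102749460 to 102749870 (410 bases, 390 at 1 h) and from 102720220 to 102720620 (400 bases, 370 at 1 h), of which the latter lay at the left edge of the window. The absent one, from 102760080 to 102760240, was the narrowest of the 7 with 160 bases, and had both centres.

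Retained regions were mostly a little narrower at 1 h, as elsewhere in the genome. Of the 32 retained regions, 23 (71.9%) were narrower, 2 equal and 7 (21.9%) wider at 1 h, with a median change of -30 bases. Over all 113274 retained regions of the 0 h list, 70.9% were narrower and 20.5% wider, with the same median change. By locus the median change was -15 bases in the Olig window, -40 at Sox10, -30 at Pdgfra and -25 at Gfap.

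**Figure D4:**
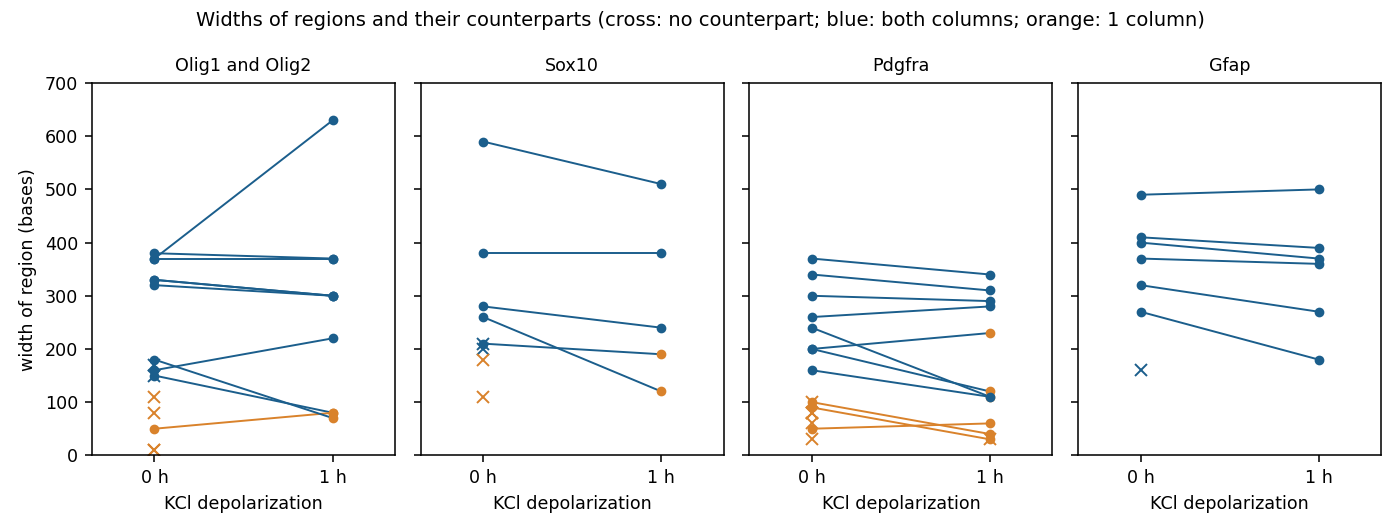
Lines join the width in bases (y axis) of each 0 h region to that of its counterpart at 1 h (x axis), and crosses are regions with no counterpart, in blue with centres in both columns and in orange with a centre in 1. Most lines slope slightly down, the line from 370 to 630 bases in the Olig panel is the exception in size, and the crosses lie at or below 210 bases in every panel.

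No WT region fell in any of the 4 windows. Chromosome 15 held no WT region at all, and the nearest WT regions on the other chromosomes were 33.9 Mb from the Olig window, 39.0 Mb from Pdgfra and 77.7 Mb from Gfap. With 43 regions in the whole WT list, their absence here sets no level of background for these loci.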

How the data were processed

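The 3 deposited region lists (RFX-DN 0 h, RFX-DN 1 h and WT) were used, each combined by the authors from 2 ChIP-seq libraries. The other 54 of the 60 samples were not used here. Per the file headers, each list gives a chromosome number, a start, an end and the columns c1 and c2, each holding, judged by its values, either 1 base position within that region or an empty mark. Bowtie and mm9 are named per the submitters' processing notes. Peak caller, calling threshold and depth: not given in the sources used here. Coordinates were left as the authors deposited them.

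The members, windows and lists were chosen with earlier results of these data known. Overlap needed at least 1 base, and a region met by several was given the one with the longest overlap. The rest of a chromosome was taken between its first and last listed base. Regions were mainly named by a rule. It took the 3 widest 0 h and the widest 1 h region of a window. It also took 0 h regions with both centres absent at 1 h, and 1 h regions absent at 0 h. Outside this rule, with values seen, stood the tightest Olig group, the rightmost Sox10 region and the Pdgfra region from 75594560 to 75594650. Other glial genes were not analysed, since no mm9 annotation was used. Code was tested on simulated lists. Python 3.11.15, numpy 2.4.6, pandas 2.3.3 and scipy 1.17.1 were used.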

Additional observations from a re-analysis of the deposited data

How the results depend on the processing

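No paired analysis was possible because neither replicate column carries a library number. All alternatives were planned. Of the 80 density ratios of single windows under alternatives, 79 stayed above 1, and that of Sox10 at 1 h was 0.990 with edges 20 kb outward. For the 4 windows together, the 0 h ratio was 1.64 with edges 20 kb outward, 1.94 with only regions with centres in both columns, 1.88 with all chromosomes as the rest, and 1.76 to 1.85 without 1 column of its list. The 1 h ratio was 1.6 to 2.07 without 1 column. With only both-column regions, 21 regions remained at 1 h, and 84.8% of 0 h and 100.0% of 1 h regions were met. The whole lists gave 84.9% and 99.6% for such regions. The 1 h share was also 100.0% with edges 10 kb inward and with only regions at least 100 bases wide, and 81.8% with overlap of at least 50% of both regions. Leaving out 1 column of either list gave 52.1% to 80.0% at 0 h (highest without the first 0 h column, lowest without the first 1 h column) and 84.8% to 100.0% at 1 h. With only regions at least 100 bases wide, 86.8% of 0 h and 80.8% of 1 h regions had both centres. Apart from the both-column shares met, no whole-list share was computed under these settings, so the other shares have no background here. The cause of these shifts was not tested. Without read depths, what fewer reads would hide at 1 h could not be estimated.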
